A study of Mus musculus with 4 samples.

Results

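The genes described here are 10 genes of mineralization and of the non-collagen bone matrix, chosen by name: Alpl, Smpd3, Dmp1, Ibsp, Mepe, Spp1, Phex, Ifitm5, Pth1r and Mgp. They were read in skeletal stem cells (SSCs) from mice with intact Mmp14 (Mmp14+/+, wild type) or without it (Mmp14-/-, Mmp14 knockout). A probe set with exactly 1 gene symbol was found for 9 of the 10, with 10 probe sets in all, out of 22180 genes read this way. Spp1, which encodes osteopontin, was not analysed here. Each group had 2 Affymetrix arrays, and both groups were taken from mice 4 to 6 weeks old and held in 3D collagen gel for 48 h before RNA was collected. Mmp14 encodes MT1-MMP, a membrane-anchored protease that cleaves collagen, and the comparison was made to screen for transcripts that change without it. Not given in the labels are the deleted part of Mmp14, the sex of the mice, how the SSCs were sorted, and whether replicates are separate animals or cultures. Any p-value here therefore reflects the variation among these 4 samples alone, which may be technical, and the number of arrays limits the precision.

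Bone mineral forms when the matrix laid down by osteoblasts takes up calcium phosphate. Tissue-nonspecific alkaline phosphatase (Alpl) frees phosphate and removes pyrophosphate, which blocks crystal growth, and neutral sphingomyelinase 2 (Smpd3) cleaves sphingomyelin in the membrane and is needed for normal mineralization. The SIBLING proteins, among them Dmp1, Ibsp, Mepe and Spp1, are acidic phosphoproteins of the bone matrix encoded by neighbouring genes. Phex is an endopeptidase of osteoblasts and osteocytes that limits the phosphate hormone Fgf23, Ifitm5 is a small membrane protein of osteoblasts, Pth1r is the receptor for parathyroid hormone, and Mgp (matrix Gla protein) inhibits calcification of soft tissue.

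RefSeq promoters (GRCm38.p6, 250 bases before to 50 bases from the start of transcription) were found for 8 of the 10 genes, 13 promoters in all. Those of Alpl, Pth1r and Dmp1 are printed because they belong to genes that fell (Alpl, Pth1r) or rose (Dmp1) in knockout cells, and because each gene has more than 1 annotated start. Capitals mark every match, on either strand, to 7 motifs: the RUNX core TGTGGT, the homeobox core TAATTA, the AP-1 motif TGANTCA, the TCF/LEF core CTTTGAT, the E-box CACGTG, the letters TATAAA of the TATA box, and the GC box GGGCGG.
Alpl start 1, chr4:137796335-137796634 (minus strand): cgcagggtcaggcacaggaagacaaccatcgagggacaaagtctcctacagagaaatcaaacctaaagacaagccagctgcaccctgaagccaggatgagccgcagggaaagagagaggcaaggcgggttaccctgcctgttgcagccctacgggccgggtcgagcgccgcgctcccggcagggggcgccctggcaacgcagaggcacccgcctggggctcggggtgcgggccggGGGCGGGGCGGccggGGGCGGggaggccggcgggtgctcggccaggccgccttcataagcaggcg
Alpl start 2, chr4:137766426-137766725 (minus strand): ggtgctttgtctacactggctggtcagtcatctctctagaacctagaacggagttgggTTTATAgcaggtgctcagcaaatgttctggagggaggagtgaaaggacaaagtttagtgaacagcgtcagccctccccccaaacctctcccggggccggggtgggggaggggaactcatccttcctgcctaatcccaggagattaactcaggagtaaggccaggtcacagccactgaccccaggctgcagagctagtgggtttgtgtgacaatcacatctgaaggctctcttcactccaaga
Dmp1 start 1, chr5:104197325-104197624 (plus strand): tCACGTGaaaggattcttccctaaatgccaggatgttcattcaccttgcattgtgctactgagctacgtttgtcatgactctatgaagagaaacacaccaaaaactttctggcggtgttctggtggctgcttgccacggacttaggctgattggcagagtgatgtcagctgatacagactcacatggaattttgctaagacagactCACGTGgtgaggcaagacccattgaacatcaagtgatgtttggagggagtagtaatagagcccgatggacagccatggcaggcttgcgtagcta
Dmp1 start 2, chr5:104202367-104202666 (plus strand): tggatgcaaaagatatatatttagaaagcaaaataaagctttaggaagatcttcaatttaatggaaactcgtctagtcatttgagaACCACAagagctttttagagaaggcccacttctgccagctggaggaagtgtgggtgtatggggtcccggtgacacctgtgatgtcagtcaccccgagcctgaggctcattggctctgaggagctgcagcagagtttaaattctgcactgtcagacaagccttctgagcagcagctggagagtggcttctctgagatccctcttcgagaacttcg
Pth1r start 1, chr9:110747096-110747395 (minus strand): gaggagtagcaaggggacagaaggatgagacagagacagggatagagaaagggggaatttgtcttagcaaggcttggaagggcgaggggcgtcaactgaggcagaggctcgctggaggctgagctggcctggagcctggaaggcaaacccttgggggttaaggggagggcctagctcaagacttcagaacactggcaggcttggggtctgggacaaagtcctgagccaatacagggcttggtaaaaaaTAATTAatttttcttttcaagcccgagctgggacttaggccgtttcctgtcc
Pth1r start 2, chr9:110743637-110743936 (minus strand): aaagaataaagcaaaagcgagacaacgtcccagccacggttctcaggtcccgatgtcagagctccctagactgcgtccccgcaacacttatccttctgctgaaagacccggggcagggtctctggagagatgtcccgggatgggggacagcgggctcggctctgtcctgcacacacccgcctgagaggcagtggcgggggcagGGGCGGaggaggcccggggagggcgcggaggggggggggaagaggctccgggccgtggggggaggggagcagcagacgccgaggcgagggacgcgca
Pth1r start 3, chr9:110742561-110742860 (minus strand): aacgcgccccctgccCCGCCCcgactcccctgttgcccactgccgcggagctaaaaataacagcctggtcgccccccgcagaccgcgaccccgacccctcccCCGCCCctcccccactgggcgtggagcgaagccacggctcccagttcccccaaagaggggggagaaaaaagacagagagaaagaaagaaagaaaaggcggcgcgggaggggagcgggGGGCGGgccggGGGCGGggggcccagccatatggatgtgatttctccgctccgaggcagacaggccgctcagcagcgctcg

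The 2 Alpl starts differed in composition. Start 1 had a GC content of 70% and 3 GC boxes, beginning at positions -15, -10 and 1 (the first transcribed base is 1 and bases before it are negative), while start 2 had a GC content of 54.3% and its only match was a TATAAA on the minus strand beginning at position -192. Start 1 of Dmp1 held CACGTG at positions -249 and -44, and start 2 held a RUNX core on the minus strand at -164. Start 1 of Pth1r held TAATTA at -2, and its other starts held GC boxes only. A RUNX core was present in 3 of the 13 promoters (Dmp1 start 2, Mepe and Spp1 start 1), which is 23.1%, against 16.8% of the 32851 promoters of the table. CACGTG was present in 1 of 13, against 7.15% of all, TAATTA in 3 of 13 (5.29% of all), TATAAA in 4 of 13 (13.6% of all), GGGCGG in 4 of 13 (35.7% of all), CTTTGAT in 1 of 13 (3.73% of all) and TGANTCA in 0 of 13 (7.81% of all). The probe sets do not tell which start was used, and no motif was shared by all 5 printed promoters of Alpl and Pth1r.

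In knockout cells the enzymes Alpl and Smpd3 and the receptor Pth1r fell, the matrix gene Dmp1 rose from a dim signal, and Mepe, Ifitm5 and Mgp were not called. Alpl fell to 29.6% of the wild-type intensity, Pth1r to 53.8% and Smpd3 to 56.6%. Ibsp and Phex were dim and were not tested. A gene was dim where its mean over the 4 arrays lay below 2.34 log2, the median over all probe sets of the table, and a gene was called where its limma p adjusted over all 12708 tested genes was below 0.05. Of the 7 tested genes, 4 were called, against 11.3% of all tested genes, with 3 lower (5.12% of all tested) and 1 higher (6.20%). Dmp1 reached the test only through the knockout arrays, so it had to differ to be tested, and the other 6 had both group means above the level for dim genes. The median difference, knockout minus wild type, was -0.04 log2 over the 7 genes and -0.0041 over all tested genes. The genes were chosen with earlier results of these arrays known, so their share of calls is a description.

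**Figure D1:**
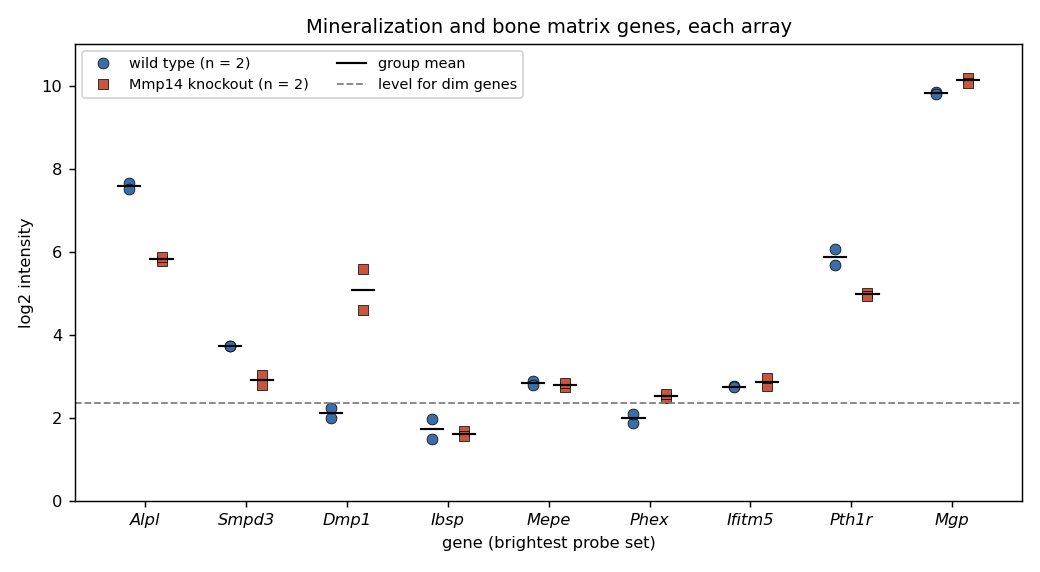
Log2 intensity of each gene's brightest probe set in the 4 arrays, with wild type as blue circles, Mmp14 knockout as red squares, bars at group means and a dashed line at 2.34 log2, the level for dim genes. Alpl, Smpd3 and Pth1r sit lower in both knockout arrays, Dmp1 sits below the line in wild type and at 4.59 and 5.57 in knockout, and heights of different genes are not comparable.

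Mmp14 itself was at 8.77 and 8.83 log2 in wild type and at 5.77 and 5.84 in knockout. The tested genes correlated at 0.992 to 0.994 between replicates and at 0.970 to 0.975 between groups, and replicates differed by a median of 0.14 log2 (wild type) and 0.12 log2 (knockout). The stromal genes Prrx1, at 10.14 to 10.22 log2, and Col1a1, at 11.41 to 11.62, were bright in all arrays and were not called. Of the 13 skeletal stem and stromal markers read, all were tested, 4 rose, 1 fell and 8 were not called. Those called were Cxcl12 (1.81 log2), Pdgfra (1.77), Cd200 (1.46), Nt5e (1.10) and Lepr (-2.26). Cd200 was near the level for dim genes in wild type, at 2.72 and 2.96. All 6 endothelial markers were dim, and so was Klf1, the only erythroid marker read. Of 8 macrophage and leukocyte markers 5 were tested, and of 5 fat cell markers 2, and limma called neither set's genes. Ptprc was dim at 1.51 to 1.86 log2, while Cd68 was at 4.38 to 4.73 in every array. The other tested macrophage and leukocyte markers (Csf1r, Lyz2, Cd14 and Fcer1g) were at 2.37 to 3.30.

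Alpl read 7.66 and 7.50 log2 in wild type, against 5.77 and 5.87 in knockout. Both knockout arrays were lower, with 1.63 log2 between the closest arrays of the groups. Alpl fell by 1.76 log2 (SE 0.11, 95% interval -2.03 to -1.48, n = 2 per group, limma adjusted p = 0.00104), which is 3.38-fold lower. Its second probe set, which was dimmer, read 4.31 and 4.0 in wild type against 3.12 and 3.07 in knockout, a difference of -1.06 log2. The direction was therefore the same at both probe sets, and the size was smaller at the dimmer. With every probe set in the fit, the brighter was called (limma adjusted p = 0.0306) and the dimmer was not (0.0822). In bulk RNA, fewer cells that express a gene and less RNA per cell cannot be told apart, and this holds for every gene here. The intestinal and germ-cell relatives of Alpl (Alppl2, Akp3 and Alpi) were dim in both groups, at 1.62 to 2.18 log2 in every array.

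Smpd3 was at 3.72 and 3.74 log2 in wild type and at 2.79 and 3.03 in knockout. The wild-type arrays were almost equal, and the knockout arrays lay below both and only a little above the level for dim genes. It fell by 0.82 log2 (SE 0.12, 95% interval -1.12 to -0.53, n = 2 per group, limma adjusted p = 0.0118). The call was lost without Mmp14 knockout replicate 1 (limma adjusted p = 0.0540) and when every probe set of the table entered the fit (0.104). A list of other sphingomyelinase, ceramidase and related genes, Chka among them, held 9 genes, all tested, of which 1 fell and 8 were not called. The gene that fell was Sgms1, a sphingomyelin synthase of the Golgi, at -1.22 log2 (limma adjusted p = 0.0050), while the sphingomyelinase genes Smpd1, Smpd2 and Smpd4 had differences of -0.14, 0.21 and 0.03. Sgms1 was not called with every probe set in the fit (0.0673).

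Pth1r was at 5.67 and 6.05 log2 in wild type and at 5.0 and 4.94 in knockout. The wild-type arrays were further apart than the knockout arrays (0.38 against 0.07 log2), and both exceeded the knockout arrays. Pth1r fell by 0.89 log2 (SE 0.15, 95% interval -1.26 to -0.53, n = 2 per group, limma adjusted p = 0.0169). The call was lost without Mmp14 knockout replicate 2 (limma adjusted p = 0.0508) and with every probe set in the fit (0.129). The intervals of Pth1r and Smpd3 overlap, and that of Alpl lies below both, although differences between genes were not tested.

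Among 14 genes read of the parathyroid hormone receptor's relatives and signalling, 10 were tested, 1 rose, 1 fell and 8 were not called. Nr4a1, an early-response nuclear receptor, rose by 0.78 log2 and Nr4a3, its relative, fell by 0.90. Nr4a3 lost its call without either wild type array (limma adjusted p = 0.0867 for replicate 1 and 0.111 for replicate 2) and without Mmp14 knockout replicate 1 (0.0842). Gnas, which encodes the G protein subunit that couples the receptor to cAMP, had a difference of -0.33 and was not called (limma adjusted p = 0.149). The hormone gene Pth and the receptor gene Pth2r were dim.

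**Figure D2:**
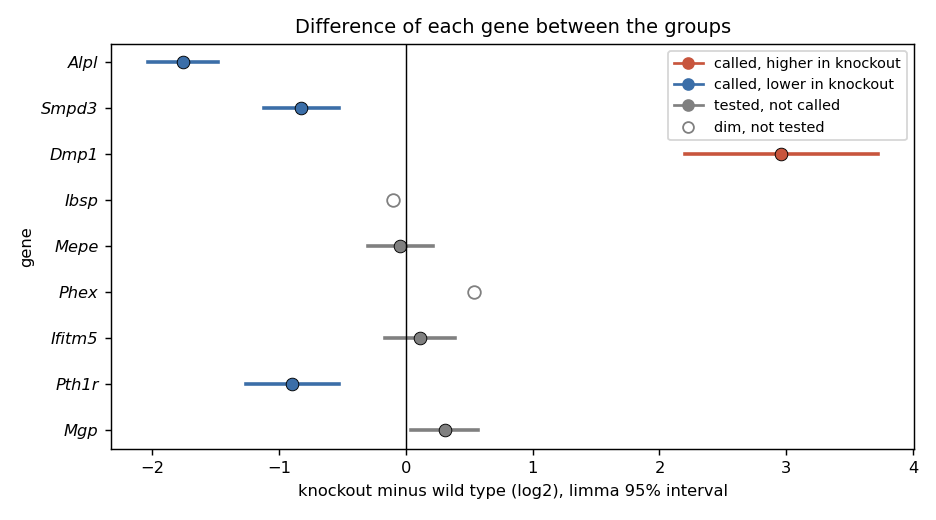
Knockout minus wild type for each gene on the log2 scale, with limma 95% intervals for the 7 tested genes and open circles without an interval for the 2 dim genes. Alpl, Smpd3 and Pth1r lie below 0, Dmp1 lies above 0 with the widest interval plotted (2.20 to 3.72), and the intervals of Mepe and Ifitm5 include 0.

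Dmp1 was the only SIBLING gene called. Ibsp and Dspp were dim, Mepe was near the level for dim genes, and Spp1 was not analysed. Whether the SIBLING genes moved together can therefore not be told. Dmp1 was at 2.0 and 2.24 log2 in wild type, below the level for dim genes, and at 5.57 and 4.59 in knockout. The knockout arrays were both far above wild type and differed from each other by 0.99 log2. The intensities differed by 2.96 log2 (SE 0.31, 95% interval 2.20 to 3.72, n = 2 per group, limma adjusted p = 0.00411). No fold is given, because the wild-type signal was dim. Leaving out Mmp14 knockout replicate 1 gave a difference of 2.47 and leaving out replicate 2 gave 3.45, with a call in both, and the call was lost with every probe set in the fit (limma adjusted p = 0.0619).

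Ibsp, which encodes bone sialoprotein, was dim in all arrays, at 1.96 and 1.48 log2 in wild type against 1.68 and 1.56 in knockout, and the groups overlapped. Mepe, a matrix phosphoglycoprotein gene of osteocytes, was at 2.88 and 2.79 in wild type against 2.75 and 2.84 in knockout. Its groups also overlapped, and its difference was -0.04 log2 (95% interval -0.30 to 0.22, limma adjusted p = 0.844). Dspp, the SIBLING gene of dentin, was dim in every array (1.15 to 1.52).

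Dmp1, Ibsp and Mepe lie next to each other on chromosome 5, between Dspp and Spp1. On the Dspp side, the matricellular gene Sparcl1 rose from 6.58 and 6.60 log2 in wild type to 9.0 and 8.60 in knockout (difference 2.21, SE 0.15, limma adjusted p = 0.00121). LOC330143, which overlaps Sparcl1 in the annotation and lies on its Dspp side, was dim. On the Spp1 side, the nearest genes read, Thoc2l and Gm20385, had differences of -0.33 and 0.11 and were not called. Of the 8 genes read along this stretch, the 2 that rose were thus separated by the dim LOC330143 and Dspp.

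**Figure D3:**
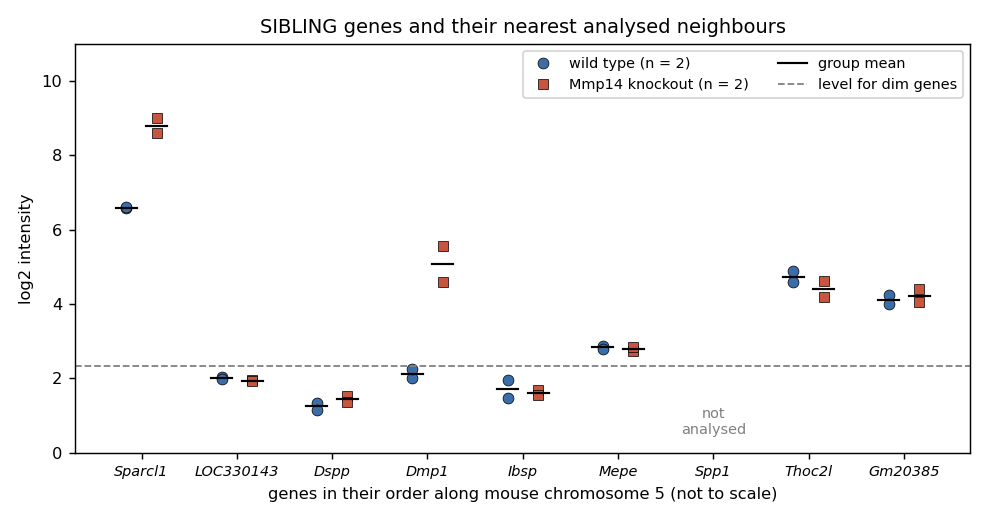
Log2 intensity in the 4 arrays of the SIBLING genes and of the nearest analysed neighbours on each side, placed in their order along chromosome 5 and not to scale, with group means as bars and 2.34 log2 as a dashed line. Sparcl1 and Dmp1 are higher in knockout, with dim genes between them, and Ibsp and Mepe beside Dmp1 overlap between the groups.

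Dmp1 is also known as an osteocyte gene. Of the 6 osteocyte markers listed (Sost, Dmp1, Mepe, Fgf23, Phex and Pdpn), 3 were tested, 1 rose (Dmp1), 1 fell (Pdpn, -0.51) and 1 was not called (Mepe). Sost was at 2.0 to 2.09 log2 and Fgf23 at 1.34 to 1.86, both dim in every array. The intensities of the 6, Dmp1 included, summed to 6.61 and 6.65 log2 in wild type, against 6.92 and 6.60 in knockout. Pdpn was the brightest of the 6 in every array. Sums of this kind, here and below, are led by the brightest genes, and heights of different genes are not comparable. They therefore do not measure how many cells of a type were present. Pdpn lost its call without any 1 of the arrays (limma adjusted p = 0.0659 to 0.132). Chondrocyte markers moved in both directions, with 2 of 8 higher (Sox9 and Cnmd) and 2 lower (Acan and Comp), and their sums were 11.92 and 11.82 log2 in wild type, against 12.17 and 12.26 in knockout. Their part in the Dmp1 result was not tested. Of 8 osteoclast markers 5 were dim and 3 were tested, of which 1 rose and 2 were not called. Acp5, not called, was at 5.38 and 5.69 log2 in wild type against 4.95 and 5.0 in knockout. Its difference was -0.56 (limma adjusted p = 0.0528), and that of Ctsk, also not called, was 0.17. The marker that rose was the gelatinase gene Mmp9, at 3.05 and 3.18 log2 in wild type against 3.74 and 4.0 in knockout (difference 0.76, SE 0.13, limma adjusted p = 0.0189). Mmp9 lost its call without wild type replicate 1 (limma adjusted p = 0.0624), without Mmp14 knockout replicate 2 (0.0706) and with every probe set in the fit (0.134). The sums of the 8 osteoclast markers ran from 6.33 to 6.52 in wild type and from 6.22 to 6.37 in knockout.

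A broader osteocyte list, Pdpn included and without Dmp1, Mepe and Phex, had 11 tested genes, of which 5 fell and 6 were not called. The list also holds Sost, which was dim, while Kcnk2 and Irx5 had wild-type means of 7.59 and 7.06 log2. Its calls therefore cannot be assigned to osteocytes. Of all tested genes 5.12% were called lower. The largest decreases were in the potassium channel gene Kcnk2 (-1.34 log2), the homeobox gene Irx5 (-0.80), Podnl1 (-0.57), which encodes a leucine-rich repeat protein, and Pdpn (-0.51). Irx5 lost its call without either wild type array (limma adjusted p = 0.0596 for replicate 1 and 0.0613 for replicate 2) and without Mmp14 knockout replicate 1 (0.0743). Podnl1 lost it without the same 3 arrays (0.0830, 0.103 and 0.186). The remaining called gene was Cd44 (-0.45, limma adjusted p = 0.0464). With the replicate block, Podnl1, Pdpn and Cd44 were not called (limma adjusted p = 0.0577, 0.0632 and 0.0860). Dmp1 thus moved up while the called genes of this list were lower, although several of these calls depend on the setting. The median of the tested genes of the list was -0.42 log2.

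Phex was at 1.88 and 2.09 log2 in wild type and at 2.47 and 2.57 in knockout. Both knockout arrays were higher by at least 0.38 log2, but the mean over the 4 arrays lay below the level for dim genes, so Phex was not tested. The difference was 0.54 log2, and without any filter it was not called (limma adjusted p = 0.0644). When a gene was kept if either group reached that level, which was chosen after seeing the data, the limma adjusted p was 0.0432, but Phex entered that fit only through the knockout arrays and so, like Dmp1, had to differ to be tested. Phex lies on the X chromosome. Xist, the RNA of the silenced X, rose from 8.45 and 8.48 log2 to 9.30 and 9.09, and the Y-linked Eif2s3y fell from 6.18 and 5.79 to 5.19 and 5.40. Without Mmp14 knockout replicate 1 neither was called (limma adjusted p = 0.0801 for Xist and 0.176 for Eif2s3y), and Eif2s3y lost its call on removal of wild type replicate 1 (0.107) and of knockout replicate 2 (0.0648) too. The part of these shifts in the values of Phex or of any other gene here was not tested.

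Of the 6 other M13 peptidases, the protease family of Phex, 4 were tested, 2 rose and 2 were not called. Mme (neprilysin) rose from 8.88 and 8.86 log2 to 10.43 and 10.30 (difference 1.49, SE 0.11, limma adjusted p = 0.00131), and the endothelin-converting enzyme gene Ece1 rose by 0.63. Ece1 lost its call without Mmp14 knockout replicate 1 (limma adjusted p = 0.0801) or 2 (0.0608). In the list of phosphate hormones and matrix kinases, 6 of 10 were tested, 1 fell and 5 were not called. Fam20a, a pseudokinase that activates the matrix kinase Fam20c, fell by 1.30 log2 (limma adjusted p = 0.00912), while Fam20c, which phosphorylates SIBLING proteins, had a difference of 0.25 and was not called. Fgf23 and Kl, the hormone and its co-receptor, were dim.

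Ifitm5 was at 2.77 and 2.74 log2 in wild type and at 2.77 and 2.95 in knockout. The groups were separated by only 0.0090 log2 and the difference was 0.11 (SE 0.11, 95% interval -0.16 to 0.39, limma adjusted p = 0.572). Bglap, which encodes the late osteoblast protein osteocalcin, was also near the bottom of the scale, at 1.38 and 1.49 in wild type against 1.5 and 2.21 in knockout. Signals this dim say little about whether these genes changed. Of 6 genes read of the Ifitm family with its partner Fkbp11, 5 were tested, 1 rose (Ifitm2, 0.52 log2), 1 fell (Fkbp11, a prolyl isomerase, -0.80) and 3 were not called. Ifitm2 lost its call without any 1 array (limma adjusted p = 0.0709 to 0.146), and Fkbp11 without either wild type array (0.0508 for replicate 1 and 0.0844 for replicate 2) or without Mmp14 knockout replicate 1 (0.0887).

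Mgp was bright, at 9.84 and 9.79 log2 in wild type and at 10.19 and 10.06 in knockout. Both knockout arrays were higher, by 0.22 log2 at the closest. The difference was 0.31 log2 (SE 0.11, 95% interval 0.05 to 0.57, n = 2 per group), and it was not called (limma adjusted p = 0.129), although it was with trend and robust variance estimates (0.0171). Groups that do not overlap are common in these arrays, with 57.8% of all tested genes and 6 of the 7 tested here. Mgp is activated by vitamin K dependent carboxylation. A list of 9 genes held genes of that step, other Gla protein genes, other genes tied to calcification, and Bmp2 and Bmp4, ligands that promote bone formation and belong to neither carboxylation nor the inhibitors. Of the 9, 2 rose, 1 fell and 6 were not called. The cartilage Gla protein gene Ucma rose from 3.18 and 3.12 log2 to 4.96 and 5.34 (difference 2.0, SE 0.15, limma adjusted p = 0.00148), Gas6, another Gla protein gene, rose by 1.19, and Bmp4, the gene of this list that fell, did so by 0.70. Bmp4 lost its call on removal of replicate 1 of either group (limma adjusted p = 0.0503 for wild type and 0.0823 for Mmp14 knockout). The carboxylase gene Ggcx had a difference of -0.07 and was not called.

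Genes that handle phosphate and pyrophosphate around Alpl moved in both directions. Of 11 genes named, 8 were read and tested, and Enpp1 and Phospho1 were not analysed. Of the 8, 2 rose, 2 fell and 4 were not called, while 11.3% of all tested genes were called. Ank, which exports pyrophosphate, rose from 8.17 and 8.43 log2 to 9.44 and 9.40 (difference 1.12, SE 0.13, limma adjusted p = 0.00491). Nt5e, which makes adenosine outside the cell, rose by 1.10. The pyrophosphatase gene Ppa1 fell by 0.70 and the phosphate transporter gene Slc20a2 by 0.57. Slc20a2 lost its call without any 1 array (limma adjusted p = 0.0582 to 0.133), and Ppa1 lost it on removal of wild type replicate 2 (0.0539) and of knockout replicate 1 (0.0877).

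Of 12 other bone matrix genes read, 8 were tested, 2 rose, 1 fell and 5 were not called. Besides Sparcl1, the calcium-binding gene Smoc1 rose by 0.64 log2, and its relative Smoc2 fell by 0.65. Smoc1 lost its call on removal of replicate 1 of either group (limma adjusted p = 0.0654 for wild type and 0.114 for Mmp14 knockout). Smoc2 lost it on removal of wild type replicate 2 (0.114) or of either knockout array (0.172 for replicate 1 and 0.0657 for replicate 2). Sparc (osteonectin), an abundant bone matrix protein, was at 10.14 to 10.25 in wild type and at 10.05 and 10.17 in knockout, with a difference of -0.09, and was not called. Of 5 osteoblast transcription factors tested, 3 fell and 2 were not called: Sp7 (-3.08 log2), Msx2 (-1.70) and Dlx5 (-1.04) fell with Alpl.

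**Figure D4:**
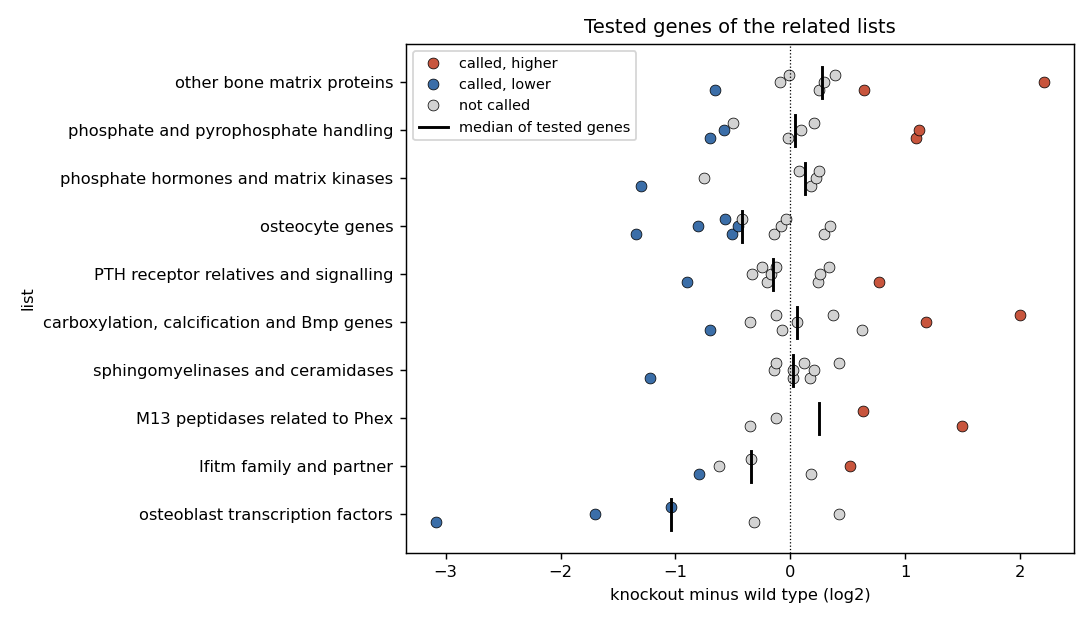
Knockout minus wild type (log2) of each tested gene in 10 lists of related genes, with called genes in red (higher) or blue (lower), other genes in grey and the median of each list as a bar. The osteoblast transcription factors have the lowest median (-1.04) of the lists plotted, and 5 of the 11 tested genes of the osteocyte list are called, each lower.

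Over the related lists together, 75 genes were tested, of which 10 rose, 16 fell and 49 were not called, with a median difference of -0.04 log2. That is 34.7% called, against 11.3% of all tested genes. These lists too were chosen with earlier results of these arrays known, so this share is a description. Of the 26 called genes, 13 kept their call without any 1 array, and 4 (Sp7, Mme, Sparcl1 and Ucma) were still called with every probe set in the fit.

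**Figure D5:**
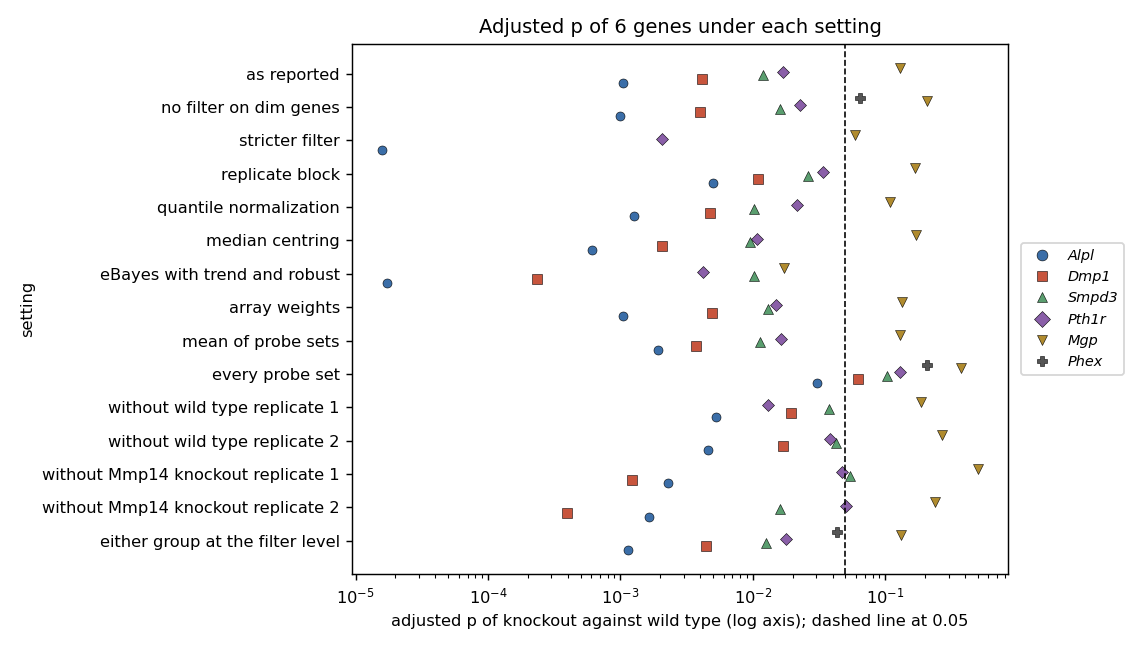
Adjusted p of knockout against wild type (log axis) for 6 genes under each setting, with a dashed line at 0.05. Alpl stays left of the line in every setting plotted (1.59e-05 to 0.0306), and Dmp1 crosses it with every probe set. Smpd3 and Pth1r cross it with every probe set and without 1 knockout array. Mgp lies left of it only with trend and robust variances, and Phex only with the filter on either group.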

How the data were processed

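RNA of 4 samples of skeletal stem cells, 2 wild type and 2 Mmp14 knockout, was hybridised to Affymetrix arrays, per the series design text. Per the labels, cDNA was amplified from 10 ng of total RNA. The deposited table holds a log2 intensity for each of 41345 probe sets in every array, from 0.43 to 12.2. The submitters' processing notes name oligo and limma without role. The normalization is not given in the sources used here, and the log2 scale was read from the values.

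Probe sets with exactly 1 gene symbol (23521) were used, and 1814 with several and 16010 with none were not. The brightest probe set stood for a gene (22180 genes). The 12708 whose mean reached 2.34 log2 were tested with limma 3.58.1 under R 4.3.3 (lmFit, then eBayes; two-sided, 2 residual degrees of freedom, Benjamini and Hochberg over all tested genes, called below 0.05). Differences are knockout minus wild type. The fit was tested on simulated data. The entrez identifiers of all 9 genes matched the same symbol in RefSeq (GRCm38.p6), which was used for names, gene order and promoters.

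The genes and lists were chosen with earlier results of these data known. All 9 genes read were named with every probe set, and of each related list the called genes, at most 4 by absolute difference, with Cd44 added. Alternatives were no filter, a stricter filter (4.76 log2, the 75th percentile), a replicate block, quantile normalization, median centring, trend and robust variances, array weights, the mean of probe sets, every probe set, leaving out each array and other thresholds. A filter on either group was chosen after seeing the data.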

Additional observations from a re-analysis of the deposited data

How the results depend on the processing

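Alpl kept its direction and its call in all 16 alternatives (-1.84 to -1.41 log2). Dmp1 did so in 14 of 15, Smpd3 in 12 of 15 and Pth1r in 13 of 16, without a change of direction. The thresholds of 0.1 and 0.01 reused the reported fit, so they could not change a direction, and 0.1 could not lose a call. The stricter filter left out Dmp1 and Smpd3, which therefore had 15 alternatives. Mepe, which was not called, ran from -0.085 to 0.0013 on leaving out single arrays, with the 0.0013 without Mmp14 knockout replicate 1. A fit of all 41345 probe sets, with or without a symbol, called 129 probe sets higher and 89 lower, against 788 and 651 genes in the reported fit. At their brightest probe sets, the genes described here had 0 higher and 1 lower in place of 1 and 3. The related genes had 3 higher and 1 lower in place of 10 and 16. At an adjusted p below 0.1, 1240 genes were higher and 1125 lower. Below 0.01 there were 264 higher and 195 lower genes, 1 of the genes described here was lower, and 5 related genes were higher and 6 lower. Trend and robust variances gave 1027 lower genes, and 2 of the genes described here were higher (Dmp1 and Mgp). The filter on either group also gave 2 higher (Dmp1 and Phex), both of which pass it only through the knockout arrays, so the added call is one that the filter's own choice favours. The stricter filter gave 0 higher, because it left out Dmp1. Leaving out each array gave 394 to 672 higher and 293 to 459 lower genes, and 6 to 12 lower related genes. The lowest counts of higher and lower genes, and of lower related genes, came without Mmp14 knockout replicate 1, and causes were not tested. The deviations of same-numbered arrays correlated at -0.04, which does not settle whether these arrays were paired, and the labels do not tell. With the replicate block 606 genes were called higher and 451 lower, with 1 higher and 3 lower among the genes described here. Signal near the level for dim genes limits what Ibsp, Phex, Ifitm5 and Mepe can show.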
